A study of Mus musculus with 8 samples.

Results

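Short interspersed elements (SINEs) were examined in P19 cells, a mouse embryonal carcinoma line, by nanopore direct RNA sequencing, which reads native RNA molecules and estimates the length of each poly(A) tail. The table of reads lists single genomic copies of repeats beside annotated transcripts as alignment targets. The members are the copies that the table assigns to the class SINE and that held at least 1 alignment with the Nanopolish quality tag PASS, each read being counted once per copy. There were 3924 such copies among 34791 targets, and they held 6619 of 2027632 PASS alignments, from 6569 reads. Wild-type, undifferentiated P19 cells were exposed to 10 µM MHY1485 (MHY), a compound used to activate the kinase mTOR, or to the same amount of DMSO as solvent control, over 24 h or 48 h. This gave 4 groups (DMSO at 24 h, MHY at 24 h, DMSO at 48 h and MHY at 48 h) with 2 biological replicates each. The libraries are called here DMSO_21, DMSO_23, MHY_21 and MHY_23 at 24 h, and DMSO_24, DMSO_25, MHY_24 and MHY_25 at 48 h, where the numbers are names and not hours. All RNA was selected on oligo(dT) beads, so that only RNA with a tail was sampled, and all groups come from a single cell line.

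SINEs are short, non-autonomous retrotransposons that are copied through RNA. Their founders were small RNAs made by RNA polymerase III, tRNA for the mouse B2 family and 7SL RNA, a part of the signal recognition particle, for the B1 family, which the table files under Alu. B2 copies carry an internal RNA polymerase III promoter, whose first element is the A box, and the 3′ end of many copies holds the polyadenylation signal AATAAA, so that B2 RNA can be polyadenylated. A SINE copy can also be transcribed as a passive stretch of a longer RNA polymerase II transcript, and both kinds of RNA can carry a poly(A) tail.

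The sequence of a copy could be read here only where the copy lay inside an exon of a transcript with no coding form overlapping it (GENCODE vM21, assembly mm10), which held for 111 copies with 263 alignments. Among the B2 copies of these that held an A box in the letters TGGCNNAGT, the copy with most alignments of each of 3 young subfamilies is shown, because the B2 results below turn on these subfamilies and on the first bases of the copy. Capitals mark every TGGCNNAGT and every AATAAA, overlapping matches included.
B2_Mm1a_dup4679: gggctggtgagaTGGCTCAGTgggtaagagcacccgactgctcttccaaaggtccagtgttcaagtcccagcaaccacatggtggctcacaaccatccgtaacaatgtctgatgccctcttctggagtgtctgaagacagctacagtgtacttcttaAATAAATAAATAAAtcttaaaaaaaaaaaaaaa
B2_Mm1t_dup1819: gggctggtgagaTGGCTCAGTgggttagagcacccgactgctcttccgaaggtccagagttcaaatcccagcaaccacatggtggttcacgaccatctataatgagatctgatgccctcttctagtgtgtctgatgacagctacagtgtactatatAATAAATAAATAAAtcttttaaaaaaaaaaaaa
B2_Mm2_dup82738: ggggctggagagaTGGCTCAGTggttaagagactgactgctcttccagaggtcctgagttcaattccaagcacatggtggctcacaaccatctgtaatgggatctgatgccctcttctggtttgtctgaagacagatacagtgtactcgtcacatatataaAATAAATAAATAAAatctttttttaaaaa
B2_Mm1a_dup4679 lies at chr5:23854750-23854939 (mm10) in an exon of 2700038G22Rik, on the strand of that transcript (+), and held 9 alignments with a median tail of 135 nt. B2_Mm1t_dup1819 lies at chr2:39010084-39010272 in an exon of a non-coding transcript of Arpc5l and is printed from the - strand, opposite to that transcript. It held 5 alignments with a median tail of 58.6 nt. B2_Mm2_dup82738 lies at chr17:33761678-33761867 in an exon of Gm17251, is printed from the + strand, that of the transcript, and held 4 alignments with a median tail of 62.1 nt. In each of the 3 copies the A box began at base 13 or 14, and 3 overlapping AATAAA matches began between base 157 and base 170. Of the last 15 bases 15 were A in B2_Mm1a_dup4679, 13 in B2_Mm1t_dup1819 and 6 in B2_Mm2_dup82738.

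For contrast, the readable copy with most alignments is shown for Alu and for MIR, an old mammalian family. Both lie in exons of long non-coding RNAs and are printed in the direction of the transcript.
B1F_dup10206: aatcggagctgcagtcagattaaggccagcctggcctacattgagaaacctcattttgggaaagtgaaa
MIR_dup29692: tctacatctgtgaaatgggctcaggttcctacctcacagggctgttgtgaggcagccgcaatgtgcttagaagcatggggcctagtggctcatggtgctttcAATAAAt
B1F_dup10206 lies at chr4:132310906-132310974 (+ strand) in Snhg12, a host gene of small nucleolar RNAs, and held 29 alignments with a median tail of 179 nt and neither motif. MIR_dup29692 lies at chr12:109571601-109571709 (+ strand) in Meg3, an imprinted long non-coding RNA, overlapped there by Gm26906. It held 8 alignments with a median tail of 296 nt and had 1 AATAAA.

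The motifs were searched on both strands of the 111 readable copies, where matches of different motifs may overlap. AATAAA was found in 55 copies (49.5%), and in 51 of the 64 B2 copies among them (79.7%). TGGCNNAGT was found in 23 copies (20.7%), 22 of them B2 copies (34.4% of the B2 copies). In these 22 the A box began at base 10 to 14 with a median of 13, counted from 1 on the strand that holds it, and 19 (86.4%) had AATAAA on that same strand. The strand with the A box was that of the annotated transcript in 12 of the 22. A run of TTTT, the kind of signal at which RNA polymerase III stops, was found in 80 copies (72.1%). This count includes A-rich ends read on the opposite strand, as in B2_Mm1a_dup4679, with 0 TTTT on the printed strand and 12 on the other. It is therefore no share of copies with a stop signal. GGTTCGAA, a single spelling of the second promoter element, the B box, was found in 0. Among the readable B2 copies AATAAA was thus common, the A box letters were found in a minority and GGTTCGAA in none. Other spellings of the B box were not searched, so the count of 0 does not show that a copy lacks a B box. The members that could not be read could be checked by name and position only.

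B2 took most of the SINE alignments. It held 5610 alignments on 3258 copies, 84.8% of the SINE total. The others were Alu (B1) with 469 alignments on 361 copies, B4 with 385 on 229, MIR with 138 on 61 and ID with 17 on 15. The family Deu had 3 lines in the table and none with the tag PASS. Since a direct RNA read stands for 1 molecule, these counts were not divided by length. As placed, the alignments were spread thinly, with a single alignment on 2911 copies (74.2%) and 10 or more on 50 copies, which together held 810 alignments (12.2%). How surely a read belongs to its copy is given in the next paragraph.

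Among the 31 subfamilies, the 6 with most alignments were B2_Mm1a (2456), B2_Mm2 (1437), B2_Mm1t (1224), B3 (326), RSINE1 of the B4 family (198) and B3A (167). B3 and B3A are older relatives within the B2 family. The copies of the young subfamilies were hard to tell apart. A minimap2 mapping quality of at least 10, a score that falls when a read fits several targets, was reached by 13.3% of B2_Mm1a, 19.3% of B2_Mm1t and 49.5% of B2_Mm2 alignments. The share was 76.7% for B3, 80.8% for B3A and 71.5% for annotated nuclear transcripts. The copy of a B2 read is therefore often uncertain, and whether its family is better known was not tested.

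The position of the copies was read from the annotation (vM21, mm10). Of the B2 copies, 133 (4.08%) overlapped an exon, 1621 (49.8%) lay in an intron and 1504 (46.2%) between genes. Exonic B2 copies held 329 alignments with a median tail of 116 nt, and 6.08% of these tails were shorter than 30 nt. Intronic and intergenic B2 copies were alike, with median tails of 84.9 and 84.5 nt, of which 11.8% and 11.9% were shorter than 30 nt. Only 29.6% of B2 alignments reached a mapping quality of 10, so for most of them the copy, and with it the context, is uncertain. No value by context is given at that quality. MIR copies were exonic most often among the 4 larger families, at 18 of 61 copies (29.5%), followed by B4 (18.8%), Alu (11.9%) and B2. A read on a copy can also lie on the transcript around it, and 362 of the SINE reads (5.51%) had a further PASS alignment on a target of another kind.

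The quality tags differed between families. Over all tags the table held 13640 SINE lines, of which 48.5% had the tag PASS and 36.1% the tag SUFFCLIP, given by Nanopolish when the 3′ end of the read is clipped from the alignment. For the class that the table calls mRNA these shares were 84.5% and 2.51%. B2 was closest to mRNA, with 67.2% PASS and 16.9% SUFFCLIP, whereas Alu had 16.8% PASS and 68.2% SUFFCLIP. In B4, ID and MIR, 20.8%, 13.1% and 26.7% of the lines had the tag PASS. The members described here are therefore a minority of the Alu, B4, ID and MIR lines and a majority of the B2 lines.

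B2 alignments began at other places than those of the other families. A read of direct RNA sequencing starts at the 3′ end of the molecule and its last bases at the 5′ end are commonly not called, so the start described here is that of the alignment and not of the molecule. Of the B2 alignments, 77.1% began 5 to 20 nt after the first base of the copy and 15.5% began 0 to 4 nt after it. The most frequent start was 13 nt after the first base, with 797 alignments. In the other families together, 79.5% began 0 to 4 nt after the first base and 14.8% after 5 to 20 nt. The 2 start classes were chosen after the positions had been seen, so that these shares are a description with no test.

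**Figure D1:**
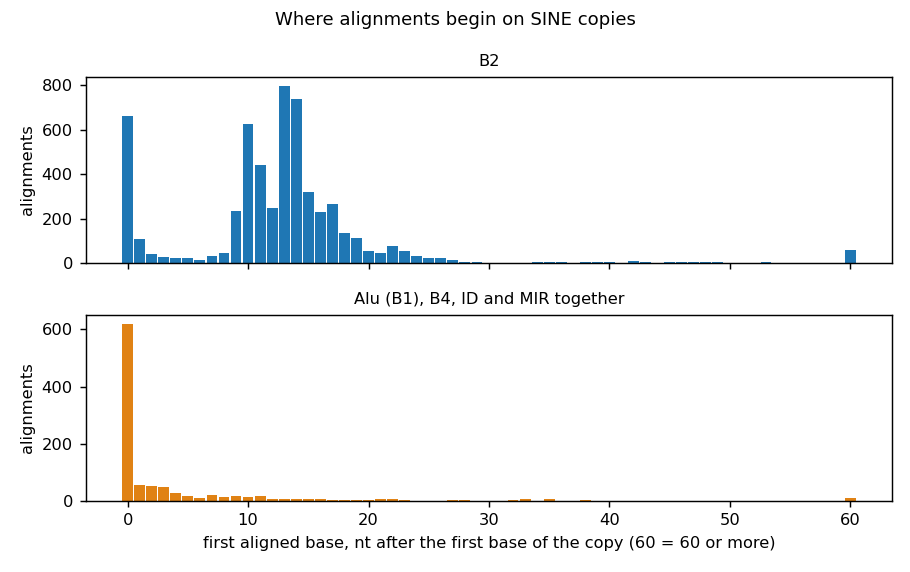
Number of PASS alignments by the distance of the first aligned base from the first base of the copy, in nt, for B2 and for the other SINE families together (8 libraries pooled, the last bar holds 60 nt or more). B2 has its highest bars at 13 and 14 nt and lower peaks at 0 nt and at 10 nt, and the other families have a single peak at 0 nt.

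The subfamilies of B2 differed in this. The share of alignments that began 5 to 20 nt into the copy was 91.0% in B2_Mm1a, 83.6% in B2_Mm1t and 68.8% in B2_Mm2, against 18.1% in B3 and 11.98% in B3A. It was 31.9% for B2 copies in exons, 79.5% for those in introns and 80.4% for those between genes, with the same limit on placement as above. At the other end, 90.3% of the B2 alignments stopped within 20 nt of the last base of the copy, and the median aligned length was 170 nt. Most B2 alignments thus ran through almost the whole copy. Their most frequent start was 13 nt after the first base, with lower peaks at 0 and 10 nt. The A box of the readable copies began near that most frequent start, but in the 3 A box copies printed above the median start was 1 nt (B2_Mm1a_dup4679), 17 nt (B2_Mm1t_dup1819) and 0 nt (B2_Mm2_dup82738) after the first base.

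Tails of B2 RNA were spread more widely than those of annotated nuclear transcripts. Pooled over the libraries, the B2 median was 86.2 nt, with quartiles of 47.2 and 158.9 nt, against 98.7 nt (66.0 and 136.4 nt) for nuclear transcripts. Tails shorter than 30 nt made up 11.6% of B2 alignments (Wilson 95% interval 10.7% to 12.4%) and 2.92% of nuclear ones. Tails longer than 150 nt, a class added after the distribution had been seen, made up 27.3% and 18.2%. Median tails of the other families were 108 nt in Alu, 110 nt in B4, 125 nt in ID and 127 nt in MIR. The intervals cover counting error only. How much of an estimated tail lies in a copy's own A-rich end, where it has one, cannot be told from the table.

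**Figure D2:**
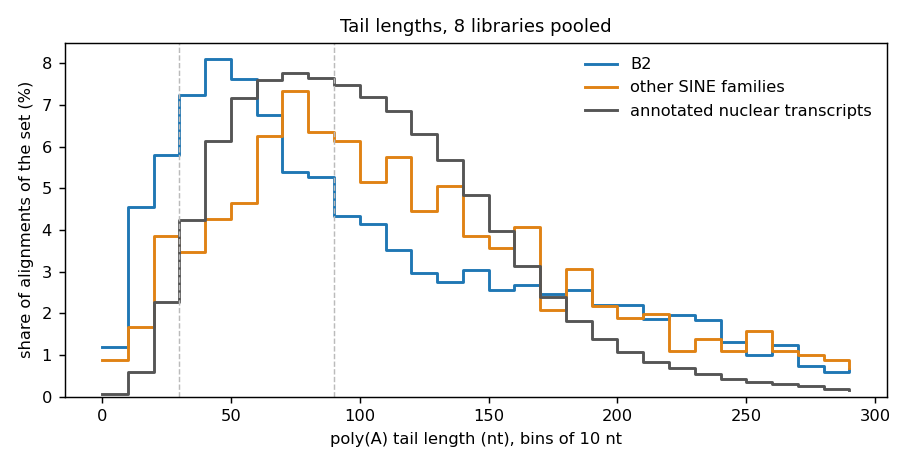
Distribution of poly(A) tail length in bins of 10 nt, as the share of each set's PASS alignments (8 libraries pooled), for B2, for the other SINE families together and for annotated nuclear transcripts. Dashed lines mark 30 and 90 nt. B2 lies above the nuclear transcripts at both ends of the scale and below them in the middle.

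The share of <30-nt tails in B2 was above that of nuclear transcripts in every library. In B2 it was 10.2% in DMSO_21, 7.96% in DMSO_23, 10.4% in MHY_21 and 11.01% in MHY_23. At 48 h it was 14.6% in DMSO_24, 10.1% in DMSO_25, 15.4% in MHY_24 and 12.3% in MHY_25. The nuclear transcripts of the same libraries had 2.17% to 4.46%, so the ranges did not overlap. The mean difference within a library was 8.65 ± 2.01 percentage points (SD, n = 8), above 0 in 8 of 8 libraries (two-sided exact sign-flip permutation test, p = 0.00781, the smallest that 8 libraries allow, adjusted p = 0.0156 over 12 tests). For all SINE copies together it was 7.86 ± 1.84 points (p = 0.00781, exact). The comparisons of B2 in this and the next paragraphs were chosen after the values had been seen.

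**Figure D3:**
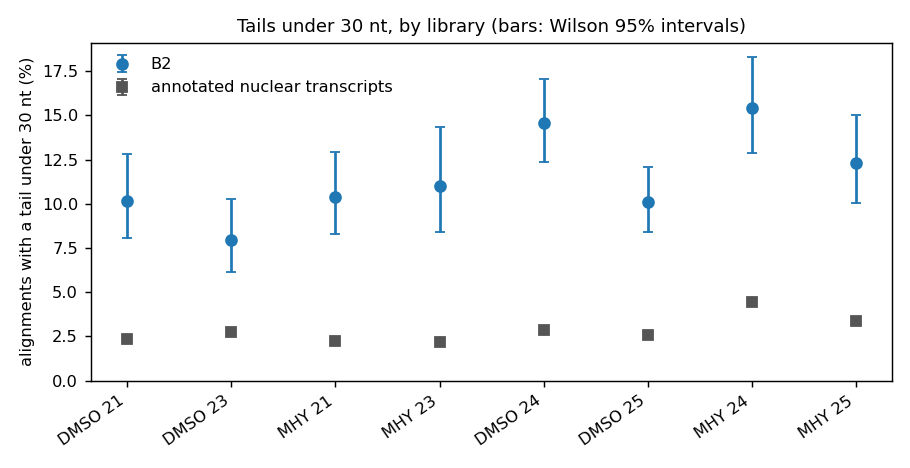
Share of PASS alignments with a tail shorter than 30 nt in each library, for B2 (circles) and annotated nuclear transcripts (squares), with Wilson 95% intervals as bars. In every library the B2 share, 7.96% to 15.4%, lies above the nuclear share, 2.17% to 4.46%.

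This difference kept its sign in 8 of 8 libraries under each of 6 other ways of choosing alignments, with means of 4.45 to 8.91 points (exact p = 0.00781 each, adjusted p = 0.0103 over 21 tests). The smallest mean was that of B2 alignments that began outside 5 to 20 nt. Against nuclear alignments of 100 to 200 nt, which are about as short as those on B2, it was 6.59 ± 1.53 points. Barcode confidence is the Deeplexicon score of how surely a read belongs to its library. It reached 0.9 in 64.6% of B2 alignments, in 84.8% of nuclear ones and in 66.0% of the nuclear alignments of 100 to 200 nt. Within B2 it reached 0.9 in 51.7% of alignments with a <30-nt tail and in 74.7% of those with a tail over 90 nt. With a confidence of at least 0.9 the excess of <30-nt tails was 6.83 ± 1.39 points.

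The share of tails over 150 nt ranged from 22.5% to 31.1% in B2 and from 16.1% to 19.6% in nuclear transcripts, a difference of 8.62 ± 3.87 points, above 0 in 8 of 8 libraries. It is given with no test, since the class was chosen after the distribution had been seen. Pooled over the libraries, the share was 27.3% in B2, and it was higher in Alu (30.1%), B4 (28.8%), MIR (38.4%) and LTR copies (31.5%) and lower in LINE copies (15.9%). The B2 difference from nuclear transcripts was 14.7 ± 4.004 points at a barcode confidence of at least 0.9 and 12.4 ± 4.15 points at a mapping quality of at least 10.

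The median tail gave no such stable difference. The B2 median was 81.6 to 93.2 nt by library, the nuclear median 92.4 to 102.5 nt, and the mean difference was -12.8 ± 5.63 nt (below 0 in 8 of 8 libraries, exact p = 0.00781, adjusted p = 0.0156). For all SINE copies it was -8.92 ± 5.81 nt (below 0 in 7 of 8 libraries, exact p = 0.0156). The sign of the B2 difference turned at a mapping quality of at least 10 (2.13 nt), at a barcode confidence of at least 0.9 (2.12 nt), with alignments that began outside 5 to 20 nt (3.70 nt) and with means in place of medians (1.21 nt). Against nuclear alignments of 100 to 200 nt it was -2.97 nt (exact p = 0.164). The all-SINE difference turned to 6.73 nt at a mapping quality of at least 10 (exact p = 0.0234, in the opposite direction), to 3.30 nt at a barcode confidence of at least 0.9 (exact p = 0.273) and to 3.87 nt with means (exact p = 0.117). The share of ~60-nt tails (30 to 90 nt) differed from that of nuclear transcripts by 0.24 ± 4.32 points in B2 (exact p = 0.883) and by -1.04 ± 4.34 points in all SINE copies (exact p = 0.578).

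The other families had longer median tails than B2 before filters on mapping quality or barcode confidence. The median of the other families together exceeded that of B2 by 6.42 to 45.6 nt in the 8 libraries, and the B2 difference was -23.0 ± 11.7 nt (exact p = 0.00781, adjusted p = 0.0100 over 9 tests). It was -12.7 ± 15.9 nt at a mapping quality of at least 10 (exact p = 0.0781) and -8.00 ± 11.1 nt at a barcode confidence of at least 0.9 (exact p = 0.0859), below 0 in 6 of 8 libraries each. MIR medians were above the nuclear ones in 8 of 8 libraries, by 28.3 ± 29.3 nt (exact p = 0.00781, adjusted p = 0.0156), with only 11 to 30 alignments in a library, and 1 MIR tail in all was shorter than 30 nt. Alu had more <30-nt tails than nuclear transcripts in 8 of 8 libraries, by 6.11 ± 4.57 points (exact p = 0.00781, adjusted p = 0.0156). In B4 this difference was 1.84 ± 2.72 points, above 0 in 6 of 8 libraries (exact p = 0.102).

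LINE and LTR copies, the other retrotransposons of the table, differed from B2 in different ways. LINE copies, which encode the machinery that copies SINEs, had median tails of 75.6 to 92.8 nt, and the B2 difference from them was -0.92 ± 7.80 nt (exact p = 0.773). It turned to 14.9 ± 6.82 nt at a mapping quality of at least 10 and to 13.9 ± 10.9 nt at a barcode confidence of at least 0.9, above 0 in 8 of 8 libraries each (exact p = 0.00781, adjusted p = 0.0117 over 18 tests). The share of <30-nt tails was higher in B2 than in LINE copies in 8 of 8 libraries, by 6.46 ± 1.24 points (exact p = 0.00781, adjusted p = 0.0100), but by 2.11 ± 3.14 points and in 5 of 8 at a mapping quality of at least 10 (exact p = 0.109). LTR medians were 118 to 127.7 nt, and the B2 difference from them was -37.4 ± 6.26 nt (below 0 in 8 of 8 libraries, exact p = 0.00781, adjusted p = 0.0100). It was smaller at a mapping quality of at least 10, at -18.6 ± 9.24 nt. At a barcode confidence of at least 0.9 it was -23.0 ± 9.15 nt, and it stayed below 0 in 8 of 8 libraries under each filter.

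Within B2, tails differed with the start of the alignment. Those that began 5 to 20 nt into the copy had a median tail of 81.6 nt, with quartiles of 45.1 and 159 nt, and 12.7% of these tails were shorter than 30 nt. Those that began 0 to 4 nt into it had 110 nt (68.2 and 162 nt) and 5.77%. Those that began over 20 nt into it (417 alignments) had 82.4 nt and 11.5%, close to starts at 5 to 20 nt. In the other SINE families together, 14.8% of tails were shorter than 30 nt at starts of 5 to 20 nt and 4.61% at 0 to 4 nt. The B2 start classes also differed in barcode confidence. It reached 0.9 in 61.3% (5 to 20 nt), 82.4% (0 to 4 nt) and 62.1% (over 20 nt) of their alignments, and its part in the tail difference was not tested. By library the median of B2 starts at 5 to 20 nt was 71.2 to 90.7 nt and that of all other starts 92.5 to 112 nt. These ranges did not overlap. By subfamily, median tails were 79.6 nt in B2_Mm1a, 79.5 nt in B2_Mm1t, 101 nt in B2_Mm2, 100.5 nt in B3 and 99.0 nt in B3A. The highest share of <30-nt tails was in B2_Mm2 (14.9%) and the lowest in B3A (2.99%). These values are given with no test.

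The libraries were alike in most respects. They held 187690 to 333435 PASS alignments, of which 94.4% to 95.5% lay on annotated nuclear transcripts, and 506 to 1215 on SINE copies. The replicates of a group differed by more than counting error, with a chi-square per degree of freedom of 1.16 to 1.54 over features, the highest in MHY at 48 h. MHY_24 stood apart in several measures. Its nuclear transcripts had the lowest median tail (92.4 nt) and the highest share of <30-nt tails (4.46%). Of its B2 lines, 25.1% had the tag SUFFCLIP, against 12.2% to 20.5% in the others, and 60.6% the tag PASS, against 65.8% to 72.4%. Of its B2 alignments, 68.0% began 5 to 20 nt into the copy, against 74.5% to 82.9% in the others. Its LINE median tail was also the lowest (75.6 nt). The 4 libraries of a time point were sequenced together in the same runs, 3 at 24 h and 2 at 48 h, so that time and run cannot be told apart.

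The share of B2 among all PASS alignments was lower in MHY than in DMSO at 48 h. It was 0.384% in DMSO_24 and 0.311% in DMSO_25, against 0.209% in MHY_24 and 0.292% in MHY_25. The means were 0.347% ± 0.0511 and 0.250% ± 0.0585 (SD, n = 2), and the groups did not overlap, MHY_24 being the lowest of all 8 libraries. The two-sided exact permutation test gave p = 0.333, the smallest that 2 against 2 libraries allow (adjusted p = 0.833 over the families). The Wilson 95% intervals were 0.359% to 0.410% in DMSO_24 and 0.194% to 0.225% in MHY_24, and 0.293% to 0.331% in DMSO_25 and 0.270% to 0.315% in MHY_25, so that DMSO_25 and MHY_25 lay within counting error of each other. The 48 h groups overlapped at a mapping quality of at least 10 (0.122% to 0.170% in DMSO, 0.114% to 0.136% in MHY). Relative to the nuclear alignments of 100 to 200 nt of the same library, they also overlapped (44.6% to 74.1% in DMSO, 39.1% to 48.1% in MHY). Within each of the 2 runs of 48 h the share was lower in both MHY libraries than in both DMSO libraries, with differences of means of -0.0718 and -0.115 percentage points. Both runs held the same libraries, so they add no biological replicate. For all SINE copies the 48 h difference was -0.0946 percentage points (exact p = 0.333), and -0.0163 at a mapping quality of at least 10 (exact p = 0.667). In bulk RNA, fewer cells that make B2 RNA and less B2 RNA per cell cannot be told apart.

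The groups overlapped in Alu, B4 and MIR. Over the 8 libraries the share of PASS alignments was 0.0186% to 0.0277% for Alu, 0.0138% to 0.0242% for B4 and 0.00415% to 0.00900% for MIR. This held at 24 h and at 48 h (exact p of 0.667 to 1). ID had 2 and 3 alignments in DMSO against 1 and 1 in MHY at 24 h, and 2 and 2 against 3 and 3 at 48 h. Its shares did not overlap at either time, lower in MHY at 24 h and higher at 48 h (exact p = 0.333 each, adjusted p = 0.833), with 1 to 3 alignments in a library.

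At 24 h the B2 groups overlapped. The B2 share was 0.306% in DMSO_21, 0.230% in DMSO_23, 0.276% in MHY_21 and 0.228% in MHY_23, a difference of means of -0.0165 percentage points (exact p = 0.667). Relative to the nuclear alignments of 100 to 200 nt, the 24 h groups did not overlap, at 65.4% to 70.0% in DMSO and 57.7% to 60.2% in MHY (exact p = 0.333). The difference was -0.0193 percentage points for all SINE copies (exact p = 0.667). The effect at 48 h minus that at 24 h was -0.0753 percentage points for all SINE copies (exact permutation within time points, p = 0.444).

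**Figure D4:**
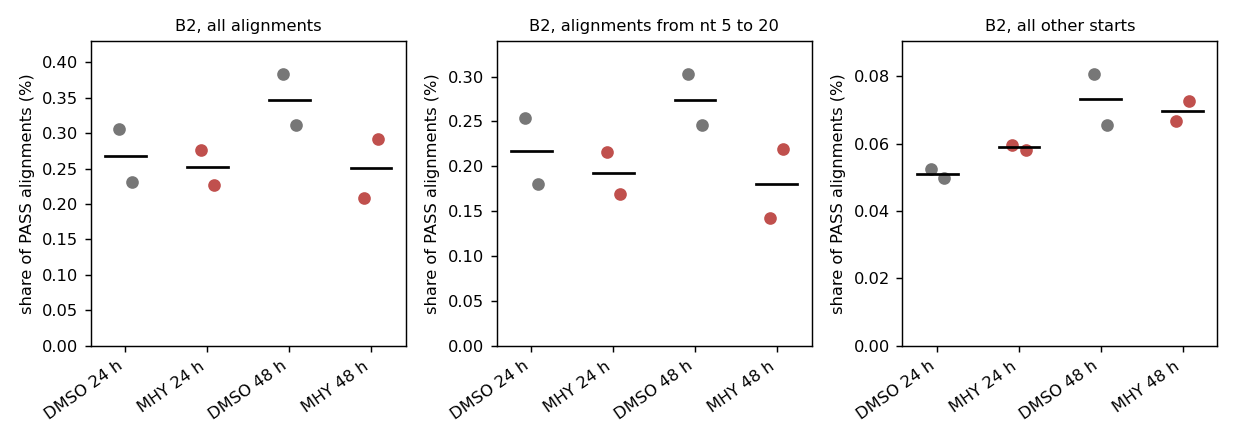
Share of B2 among the PASS alignments of each library in percent (points, 2 libraries per group, lines at the group means), for all B2 alignments, for those that begin 5 to 20 nt into the copy and for all other starts. At 48 h both MHY libraries lie below both DMSO libraries for all alignments and for starts at 5 to 20 nt, and the groups overlap for other starts.

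At 48 h the groups separated for B2 starts at 5 to 20 nt and overlapped for the other starts. B2 starts at 5 to 20 nt had 3028 RPM (alignments per 1000000 PASS alignments of the library) in DMSO_24 and 2456 in DMSO_25, against 1422 in MHY_24 and 2190 in MHY_25, so that the groups did not overlap. All other starts had 807 and 657 against 668 and 727, and the groups overlapped. At 24 h the first class had 2534 in DMSO_21, 1806 in DMSO_23, 2159 in MHY_21 and 1694 in MHY_23, with overlap, and the other starts had 524 and 498 in DMSO against 598 and 581 in MHY, higher in both MHY libraries. These are descriptions with no test.

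In the fit of read counts across all genes and repeat families (limma voom, all 8 libraries, Benjamini-Hochberg over 4127 features), B2 was the only one of 4 tested SINE families called at 48 h. Its log2 fold change was -0.61 (SE 0.11, adjusted p = 1.01e-05), that is 34.6% lower in MHY. Over all features, 64 were called (1.55%), 47 of them lower in MHY (1.14%), and the median log2 fold change was -0.01. The other families had log2 fold changes of -0.08 (Alu, SE 0.21), 0.04 (B4, SE 0.22) and -0.16 (MIR, SE 0.33), with adjusted p of 0.924, 0.973 and 0.8998. ID and Deu were below the minimum of 10 reads in 2 libraries. At 24 h, 0 of the 4 families were called and 0 had an unadjusted p under 0.05, against 3 of 4127 features called (0.0727%). The 24 h log2 fold change of B2 was -0.06 (SE 0.12, adjusted p = 0.997). The difference between the B2 effects at 48 h and 24 h was -0.55 (SE 0.16, unadjusted p = 0.000687, adjusted p = 0.123), where 14 of 4127 features were called (0.339%).

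The call of B2 at 48 h rested on MHY_24. Without that library the log2 fold change was -0.27 (adjusted p = 0.725), and over the other libraries left out in turn it was -0.48 to -0.87 and stayed called. It was also lost at a mapping quality of at least 10, at -0.30 (adjusted p = 0.366), a filter that keeps 29.6% of the B2 alignments. Over lines of every quality tag the B2 share was 0.384% to 0.448% in DMSO and 0.284% to 0.353% in MHY at 48 h, again without overlap, so the difference was present without the PASS filter. Relative to the LINE alignments of the same library, the groups overlapped at 48 h (81.7% to 119% in DMSO, 59.8% to 92.5% in MHY). The part of the short tails and SUFFCLIP lines of MHY_24 in the result was not tested.

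The fit by subfamily tested 10 SINE subfamilies among 4150 features, of which 70 were called at 48 h (1.69%), 53 of them lower (1.28%). B2_Mm1a and B2_Mm1t were called, both lower in MHY. B2_Mm1a had 1751 RPM in DMSO_24 and 1401 in DMSO_25, against 769 in MHY_24 and 1237 in MHY_25, with no overlap. Its log2 fold change was -0.81 (SE 0.14, adjusted p = 1.36e-06). B2_Mm1t had 816 and 678 RPM in DMSO_24 and DMSO_25 against 417 and 581 in MHY_24 and MHY_25, again with no overlap, and a log2 fold change of -0.71 (SE 0.16, adjusted p = 0.00158). Both calls were lost without MHY_24 (-0.37, adjusted p = 0.696, and -0.39, adjusted p = 0.754), and that of B2_Mm1t also without DMSO_24 (-0.60, adjusted p = 0.103). Both were also lost at a mapping quality of at least 10 (-0.60, adjusted p = 0.231, and -0.39, adjusted p = 0.560).

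The other named subfamilies, B2_Mm2, B3A and B3 of B2 and RSINE1 of B4, were not called. B2_Mm2 had a log2 fold change of -0.35 (SE 0.15, adjusted p = 0.296), which was called without MHY_25 (-0.57, adjusted p = 0.0253). B3A had -0.55 (SE 0.31, adjusted p = 0.487), B3 -0.04 (SE 0.22, adjusted p = 0.970) and RSINE1 0.12 (SE 0.28, adjusted p = 0.917). Whether the effect differed between subfamilies was not tested. At 24 h, 0 of 10 subfamilies were called by limma voom and 0 had an unadjusted p under 0.05, against 3 of 4150 features called (0.0723%).

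**Figure D5:**
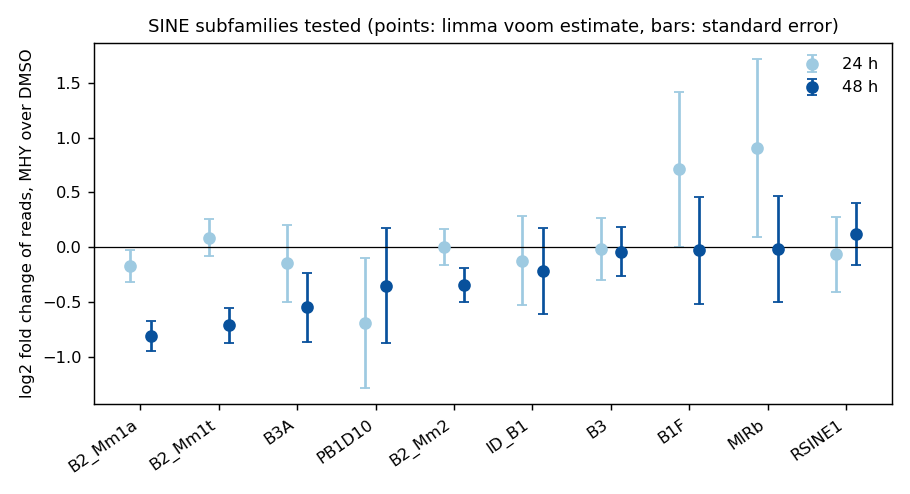
Log2 fold change of read counts, MHY over DMSO, for the 10 SINE subfamilies tested at 24 h (light) and 48 h (dark), with the limma voom estimate as a point and its standard error as a bar. At 48 h B2_Mm1a (-0.81) and B2_Mm1t (-0.71) lie lowest.

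Tails of SINE RNA were not called different between MHY and DMSO. Median tails of B2 were 84.2 and 89.4 nt in DMSO against 82.5 and 81.6 nt in MHY at 24 h, where the groups did not overlap (difference -4.72 nt, exact p = 0.333). At 48 h they were 81.7 and 93.2 nt in DMSO against 88.5 and 88.1 nt in MHY, with overlap (0.815 nt, exact p = 1). The share of <30-nt tails in B2 was higher in MHY by 1.63 points at 24 h, where the groups did not overlap (exact p = 0.333), and by 1.51 points at 48 h, where they did (exact p = 0.667). For all SINE copies the differences in median tail were -0.30 and 2.32 nt (exact p = 1 for both), those in <30-nt tails 0.82 and 1.01 points (exact p = 0.667 and 1) and those in ~60-nt tails -0.91 and -2.69 points (exact p = 0.667 and 0.333). The all-SINE ~60-nt groups overlapped at 24 h but not at 48 h. The Alu ~60-nt difference at 24 h was -6.71 points, also without overlap (exact p = 0.333, adjusted p = 0.667). The difference of the all-SINE median effects between the times was 2.62 nt (exact permutation within time points, p = 0.778).

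The fit of tail classes over 1959 features (limma on log2 odds, features with at least 10 reads in every library) called 0 of 4 SINE families for <30-nt tails at either time, and 0 had an unadjusted p under 0.05. Over all features, 0 were called at 24 h (0%) and 7 at 48 h (0.357%). For ~60-nt tails it also called 0 of 4 families at either time, with 0 at an unadjusted p under 0.05, against 0 features at 24 h (0%) and 5 at 48 h (0.255%). For B2 the change in log2 odds of a <30-nt tail was 0.27 (SE 0.28, adjusted p = 0.996) at 24 h and 0.24 (SE 0.24, adjusted p = 0.804) at 48 h, while the median over all features was -0.07 and 0.41. For ~60-nt tails it was 0.02 (SE 0.13) and -0.14 (SE 0.11).

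Single copies were too thinly covered for the fit with the filter on low counts. Of the 3924 copies, 0 reached 10 reads in 2 libraries for the fit of single targets. Among the copies reported here, RSINE1_dup82118 (chr11:105140990-105141114, between genes) had 50 alignments and a median tail of 74.9 nt, with 18 in DMSO and 9 in MHY at 24 h and 11 and 12 at 48 h. B2_Mm1t_dup7554 (chr6:30038747-30038939, between genes) had 36 alignments with 11, 7, 9 and 9 in the same order of groups, and a median tail of 63.4 nt. B1F_dup10206 in Snhg12 had 29, with 3, 9, 8 and 9. B2_Mm1a_dup5210 (chr5:114707215-114707410, between genes) had 25, with 1, 5, 12 and 7, and 24.0% of its tails were shorter than 30 nt.

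The next copies were MIRb_dup11683 (chr4:136141664-136141808, between genes, 25 alignments), B3_dup12935 (chr2:72987491-72987693, in an exon of Sp3os, 22), B2_Mm1a_dup5198 (chr5:114080114-114080309, in introns of Svop and Usp30, 21), B2_Mm1t_dup15415 (chr11:76220644-76220846, in an intron of Glod4, 21) and B2_Mm1a_dup11288 (chr11:4506309-4506467, in an intron of Mtmr3, 20), the last tied with a further copy. Of these 9 copies, the 4 that lie in introns or between genes and belong to B2_Mm1a or to B2_Mm1t, other than B2_Mm1t_dup15415, had a median start 13 to 14.5 nt into the copy. B2_Mm1t_dup15415 and the exonic copy of Snhg12 had a median start at 0 nt. Mapping quality reached 10 in 85.7% of the alignments of B2_Mm1t_dup15415 and in 0% of those of B2_Mm1a_dup11288.

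Without the filter on low counts, limma voom called 1 of 3924 SINE copies at each time, against 79 of 34376 targets at 24 h (0.23%) and 219 at 48 h (0.637%). B2_Mm1a_dup5081 (chr5:103688153-103688312, between genes) had 0 alignments in both DMSO libraries and 4 and 2 in the MHY libraries at 24 h (adjusted p = 0.0269). B2_Mm1t_dup15035 (chr11:52356560-52356748, between genes) had 3 and 7 in the DMSO libraries and 0 in both MHY libraries at 48 h (adjusted p = 5.66e-05). None of the alignments of either copy reached a mapping quality of 10, so that near-identical copies could hold the same reads.

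The genes known to make, carry or silence SINE RNA were not called. For RNA polymerase III and its factors all 31 genes had reads, and of 20 tested 0 were called by limma voom at either time, with 0 at 24 h and 3 at 48 h at an unadjusted p under 0.05. Over all 4127 features, 178 (4.31%) had such a p at 24 h and 509 (12.3%) at 48 h, which is the background for this and the next lists. The median log2 fold change of these 20 was 0.09 at 24 h and 0.04 at 48 h, beside 0.01 and -0.01 over all features. At 48 h Polr1d, a subunit that RNA polymerase III shares with RNA polymerase I, had a log2 fold change of -0.09 (SE 0.18, adjusted p = 0.897). Polr2e and Polr2f, subunits shared by the nuclear RNA polymerases, had 0.04 (SE 0.20, adjusted p = 0.969) and -0.12 (SE 0.21, adjusted p = 0.884), and Ssb, the La protein that binds the 3′ end of RNA polymerase III transcripts, had 0.03 (SE 0.23, adjusted p = 0.976). Maf1, the repressor of RNA polymerase III that mTOR phosphorylates, was added after its values had been seen and had 0.21 (SE 0.33, adjusted p = 0.861). Of 9 tested genes of the signal recognition particle and its receptor 0 were called at either time (medians -0.14 and -0.09, with 1 and 0 at an unadjusted p under 0.05). The 1 gene was Srpr, a subunit of the receptor, named after its values had been seen (24 h log2 fold change -1.79, SE 0.80, adjusted p = 0.957). Srp14 and Srp9, whose proteins bind 7SL RNA and B1 RNA, had -0.13 (SE 0.22, adjusted p = 0.873) and 0.05 (SE 0.23, adjusted p = 0.965) at 48 h.

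Of 14 tested genes that silence repeats, 0 were called at either time (medians 0.09 and -0.17, with 0 and 1 at an unadjusted p under 0.05). Trim28, a corepressor at retrotransposons, had -0.15 (SE 0.17, adjusted p = 0.781) at 48 h. Dnmt3b, a DNA methyltransferase, had 0.12 (SE 0.23, adjusted p = 0.890), Chd4, a chromatin remodeller, had -0.014 (SE 0.25, adjusted p = 0.989), and Cbx3, a heterochromatin protein, had -0.94 (SE 0.29, adjusted p = 0.0712). Of 9 tested genes for binding, editing and decay of RNA, 0 were called (medians -0.33 and -0.22, with 0 and 2 at an unadjusted p under 0.05). Pabpc1, the cytoplasmic poly(A) binding protein, had -0.42 (SE 0.16, adjusted p = 0.168), and Hnrnpk, an RNA binding protein, -0.34 (SE 0.16, adjusted p = 0.367) at 48 h.

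Markers of undifferentiated embryonal carcinoma cells were present, with reads for 9 of 10 genes, a summed level of 3473 to 3995 RPM and a median of 2474 RPM for Pou5f1. Zfp42 had no reads. Tdgf1, a coreceptor of Nodal, was the only one of 8 tested that was called, lower in MHY at 48 h with 270 and 315 RPM in DMSO against 141 and 191 in MHY (log2 fold change -0.99, SE 0.21, adjusted p = 0.000772). Of the markers of mesoderm and muscle, 4 of 5 had reads, Tnnt2 had none, and T (brachyury) was the only one tested. It was called lower in MHY at 48 h (-1.19, SE 0.30, adjusted p = 0.00915), with 66.5 and 219 RPM in DMSO against 30.7 and 177 in MHY, so that the groups overlapped. The summed level of this list was 84.2 to 231 RPM in DMSO and 58.2 to 191 in MHY at 48 h. Neuronal markers had reads for 3 of 5 genes (summed 267 to 297 RPM in DMSO and 204 to 227 in MHY at 48 h, Dcx and Rbfox3 at 0) and 0 of 2 tested were called. Endoderm markers stayed at or below 8.87 RPM, with Sox17 and Afp at 0. The part of these differences in the B2 result was not tested.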

How the data were processed

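Direct RNA libraries (kit SQK-RNA002, GridION) of oligo(dT)-selected RNA were processed by the authors with Guppy, minimap2 2.20 (map-ont, mm10 with GENCODE vM17), Nanopolish and Deeplexicon. The deposited table lists alignments, with a tail length in nt, an alignment start and end in nt, the mapping quality as a minimap2 score and the barcode confidence as a fraction. It holds no counts. Here PASS alignments were counted once per read and target (1926118 on annotated nuclear transcripts, without 66955 mitochondrial and 12169 pseudogene lines). Libraries were matched to the groups of the labels through the condition column of the table, in which lines that name no time were taken as 24 h because the others name 48 h. Shares and medians per library were compared by exact permutation tests over libraries, so p-values measure the spread between these libraries. Counts were fitted with limma 3.58.1 (voom, median-of-ratios size factors, at least 10 reads in at least 2 libraries), and tail classes with limma on log2 odds (0.5 read added), all 8 libraries in 1 fit, with 4 group means. Features were called at a Benjamini-Hochberg adjusted p under 0.05. The fits were also run on simulated data, and the outcome is not given here. All families, the 6 subfamilies and 10 copies with most reads, and those called, were named, and 2 to 4 genes of each list by most reads, and 1 of the 10 copies is not reported here. Members and lists were chosen with earlier results of these data known. Python 3.11.15 and R 4.3.3 were used.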

Additional observations from a re-analysis of the deposited data

How the results depend on the processing

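Of 587 recomputed values of 48 results, 508 kept their direction and side of the threshold. At a mapping quality of at least 10 no SINE family or subfamily was called at 48 h (0 and 0), the all-SINE median difference was 8.29 nt at 24 h (-0.18 nt for the effect at 48 h minus that at 24 h), <30-nt differences were -2.49 and -0.51 points, the all-SINE and B2 medians lay 6.73 and 2.13 nt above the nuclear ones, B3 at 48 h was 0.10 and B2 <30-nt log2 odds were -0.13 and -0.077. At a barcode confidence of at least 0.9 the 24 h all-SINE differences were -0.31 (<30-nt) and 0.52 points (~60-nt), B2 counts 0.0013 on the log2 scale, and the all-SINE and B2 medians lay 3.30 and 2.12 nt above the nuclear ones (B2 3.90 nt against short nuclear alignments). The B2 minus LINE median was 14.9 and 13.9 nt under these filters. With mean tails the values were 1.16 nt (24 h), 3.87 nt (all SINE against nuclear) and 1.21 nt (B2). With class bounds of 20 and 40 to 80 nt the 24 h values were -0.74 points (all SINE), and -0.16 and -0.018 in log2 odds (B2). With library totals Alu and B3 at 48 h were 0.027 and 0.070. B2 starts outside 5 to 20 nt gave a median 3.70 nt above the nuclear one. Without a filter on low counts 1 copy was called at each time.

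Within runs 1 to 5 the all-SINE minus nuclear median was -13.0, -5.64, -16.1, -4.74 and -5.72 nt, with too few libraries for p under 0.05. Signs turned in run 1 (0.21 nt, -0.39 and 0.75 points), run 2 (share 0.0134, ~60-nt 0.076 points), run 3 (2.13 nt) and run 5 (-3.90 nt, 0.16 points) for all-SINE differences between treatments.

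Leaving out each library gave the following ranges. Read shares at 24 h were -0.0524 to 0.0138 (all SINE) and -0.0542 to 0.0212 (B2), and at 48 h -0.131 to -0.0576 and -0.138 to -0.0557, while the all-SINE effect at 48 h minus that at 24 h was -0.112 to -0.0383. All-SINE medians differed by -2.60 to 2.00 nt at 24 h and -4.09 to 8.73 nt at 48 h, and the effect at 48 h minus that at 24 h was -3.79 to 9.03 nt. The <30-nt difference at 48 h was -1.50 to 3.51 points and the ~60-nt difference at 24 h -1.89 to 0.070 points (-4.24 to -1.14 at 48 h). At 48 h, 0 to 1 families and 0 to 3 subfamilies were called. Log2 fold changes at 48 h were -0.18 to 0.062 (Alu), -0.13 to 0.16 (B4), -0.43 to 0.22 (MIR) and -0.34 to 0.19 (B3), and B2 at 24 h -0.31 to 0.15. B2 log2 odds were -0.086 to 0.51 (<30-nt, 48 h) and -0.0045 to 0.043 (~60-nt, 24 h). The B2 effect at 48 h minus that at 24 h was called without DMSO_21 (-0.75, adjusted p = 0.0451) and without MHY_25 (-0.82, adjusted p = 9.55e-05). Where a group kept 1 library, the fit assumed that it varied like the others.

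With the replicate number as a block, B2 at 48 h was -0.59 and no call changed. Deviations of same-numbered libraries correlated at 0.02 and 0.14, with 2 pairs at each time, so the numbers were not taken as pairs. The causes of these changes were not tested. The exact 2 against 2 permutation tests cannot go below p = 0.333, and ID, Deu and all single copies were below the minimum of reads for the filtered fits.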
